A study of Mus musculus with 10 samples.

Results

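A set of 10 genes of gastric-type mucus and of epithelial metaplasia was followed in mouse pancreas labelled as deleted for the Hippo kinases MST1 and MST2. They were 4 mucins (Muc1, Muc4, Muc5ac and Muc6), 3 trefoil factors (Tff1, Tff2 and Tff3), the mucin-folding protein Agr2, the gastrokine Gkn3 and the kinase Dclk1. They were chosen by symbol, and each had 1 transcript cluster, a group of probes along a transcript that is summarised into 1 value. All 10 were among the 19938 genes tested. The DKO group (n = 5 arrays) had the genotype PDX1Cre,Mst1-/-,Mst2L/L, that is, a Mst1 null allele in every cell and a floxed Mst2 allele that is lost only where Cre acts, driven by the Pdx1 promoter of pancreatic progenitor cells. The Control group (n = 5 arrays) is labelled with no further genotype, and both groups were of mixed strain background. The labels give no sex, no age and no statement that each array is a different animal, so a p-value here speaks only of the spread among these arrays. Stk4, the gene of MST1, was dim in both groups (5.07 to 5.21 in DKO and 5.01 to 5.23 in Control, log2 change -0.02, adjusted p = 0.884) and gave no check of the labels. Stk3, the gene of MST2, had no row among the 19938 genes tested, so it gave no check either.

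Mucins are heavily O-glycosylated proteins. Muc5ac and Muc6 are secreted and form gels, whereas Muc1 and Muc4 are anchored in the apical membrane. In the stomach, surface mucous cells pair Muc5ac with Tff1, and gland mucous cells pair Muc6 with Tff2. Trefoil factors are small, cysteine-rich secreted peptides that accompany mucus and take part in mucosal repair. TFF2 was first purified from pig pancreas, and Muc6 is a product of small pancreatic ducts and duct glands. In mucinous lesions of the pancreas both gastric pairs, Agr2 and DCLK1-positive cells are used as markers, and loss of Hippo kinases frees the coactivators YAP and TAZ to act through TEAD factors.

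A set of 3 promoters is shown because the TEAD core motif GGAATG bears on the pathway that was deleted: that of Muc6, which fell and held no match, and those of Muc1 and Muc4, which held 1 match each and did not pass the test. The sequences are from RefSeq (GRCm38.p6), run 5′ to 3′ along the gene's strand from 250 bases before to 50 bases after the start, and carry any GGAATG or its reverse complement CATTCC in capitals.
Muc6 (chr7:141655344-141655643, minus strand): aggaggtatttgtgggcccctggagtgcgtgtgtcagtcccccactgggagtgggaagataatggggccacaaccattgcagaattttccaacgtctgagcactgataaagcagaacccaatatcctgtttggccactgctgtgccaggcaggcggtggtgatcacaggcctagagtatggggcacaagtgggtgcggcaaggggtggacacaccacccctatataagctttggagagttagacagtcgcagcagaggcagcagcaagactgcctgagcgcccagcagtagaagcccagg
Muc1 (chr3:89228806-89229105, plus strand): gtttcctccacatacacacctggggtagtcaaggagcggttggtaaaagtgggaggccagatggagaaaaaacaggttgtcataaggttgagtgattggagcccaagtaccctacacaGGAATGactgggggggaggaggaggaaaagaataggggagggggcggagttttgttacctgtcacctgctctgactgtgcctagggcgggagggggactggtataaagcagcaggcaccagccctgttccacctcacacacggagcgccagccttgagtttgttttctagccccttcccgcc
Muc4 (chr16:32735636-32735935, plus strand): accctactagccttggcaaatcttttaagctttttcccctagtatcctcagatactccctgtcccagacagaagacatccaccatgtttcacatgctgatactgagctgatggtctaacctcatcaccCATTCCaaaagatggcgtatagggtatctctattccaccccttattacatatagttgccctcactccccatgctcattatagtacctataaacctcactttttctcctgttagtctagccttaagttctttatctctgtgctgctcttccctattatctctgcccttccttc
The Muc1 match began 132 bases before the start and the Muc4 match, on the other strand, 122 bases before it. Promoters were at hand for 6 of the 10 genes, 7 windows in all, of which these 2 held the motif, and 14.66% of all 32851 windows of 300 bases did. No window was at hand for Muc5ac, Tff1, Tff3 or Tff2, the other gene that fell. Whether the motif bears on any change was not tested.

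None of the 10 genes rose in DKO pancreas in the limma fit (at an unadjusted p of 0.05 there was 1 higher, Dclk1), and 2 fell, the gland mucin Muc6 and its partner Tff2. Over all genes tested, 2.44% passed an adjusted p of 0.05, 2.08% higher and 0.366% lower. In the same fit 14.8% of all genes had an unadjusted p under 0.05, the share to set beside every count at that level. Dclk1 alone had a DKO mean above the Control mean, while 47.6% of all genes did. The median log2 change of the 10 was -0.12, and that of all genes was -0.006. RNA of the whole tissue was measured, so fewer cells of a type and less RNA per cell cannot be told apart.

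**Figure D1:**
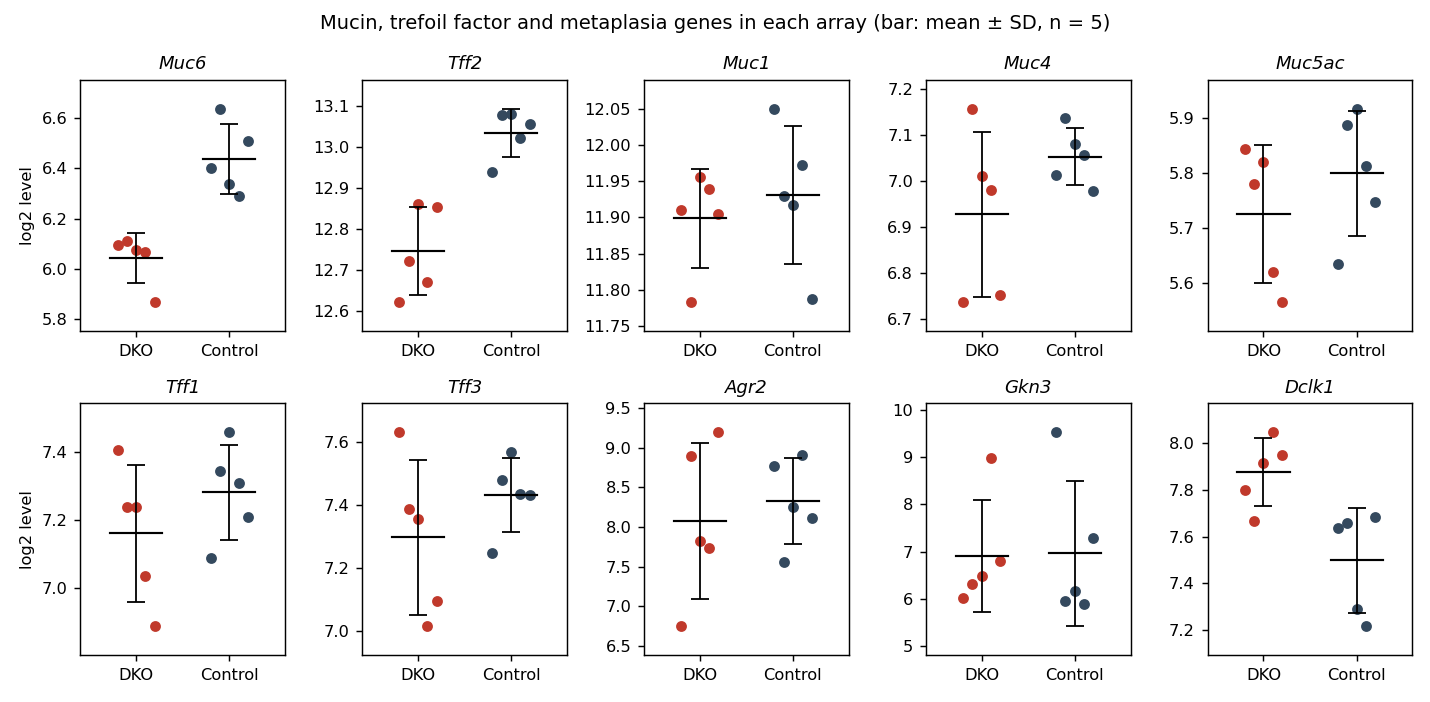
Log2 level (y axis, with its own range in each panel) of the 10 genes in each DKO and Control array (points), with the mean and SD of the 5 arrays. The DKO points of Muc6 and Tff2 all lie below the Control points, and Gkn3 and Agr2 spread widely within both groups.

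Muc6 changed most among those called. It stood at 6.09, 6.11, 6.08, 6.07 and 5.87 in DKO replicates 1 to 5, against 6.40, 6.64, 6.34, 6.29 and 6.51 in Control replicates 1 to 5 (log2 levels). The groups did not overlap, a pattern found in 4.8% of all genes, and DKO replicate 5 lay apart below the other DKO arrays. The means were 6.04 ± 0.10 in DKO and 6.43 ± 0.14 in Control (SD, n = 5 each), a log2 change of -0.39 ± 0.07 (SE) and a DKO-to-Control ratio of 0.762 (limma adjusted p = 0.0210). Without DKO replicate 5 the change was -0.35 (adjusted p = 0.0484). The call ended without Control replicate 5 (-0.37, adjusted p = 0.0579), with the replicate number as a block (adjusted p = 0.0952) and with an unmoderated variance (adjusted p = 0.0549). Olfactory receptor genes, which are not expected in pancreas, served as a scale for dim signals, and 95% of the 1027 of them averaged below 6.12. The DKO mean of Muc6 lay under that mark and the Control mean above it, so the size of the fall is measured close to the dim end of the scale.

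Tff2 was among the brightest genes of the tissue, with a mean level at the 99.8 percentile of genes. Its log2 levels were 12.62, 12.72, 12.86, 12.67 and 12.85 in DKO replicates 1 to 5, against 12.94, 13.08, 13.08, 13.02 and 13.05 in Control replicates 1 to 5. Every DKO array lay below every Control array, though the gap between the highest DKO and the lowest Control array was small. The log2 change was -0.29 ± 0.06 (SE), a DKO-to-Control ratio of 0.819 (adjusted p = 0.0309). This call was close to the threshold: it held on leaving out any 1 of 3 arrays and ended on leaving out any 1 of the other 7 (highest adjusted p 0.0911, without Control replicate 2). It also ended after quantile normalization again (-0.20, adjusted p = 0.132), with the block (adjusted p = 0.0831) and with an unmoderated variance (adjusted p = 0.0505). The brightest gene of each array stood at 13.64 to 13.73, so Tff2 was measured near the top of the scale.

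Acinar genes were set beside Tff2. The mean level of 12 measured acinar genes was 11.87 to 12.27 in DKO arrays and 12.28 to 12.43 in Control arrays. Of these 12, none rose and 1 fell, Rbpjl, which belongs to the PTF1 complex that drives acinar genes (log2 change -0.45 ± 0.09 SE, adjusted p = 0.0225), with 3 at an unadjusted p of 0.05, and the median change was -0.10. Removing any 1 of 3 arrays (Control 3, Control 5 or DKO 4) took the adjusted p of Rbpjl past the threshold, up to 0.0689. It was also past it with the replicate block (adjusted p = 0.0552), with an unmoderated variance (adjusted p = 0.0664) and with Control replicate 2 and DKO replicate 4 both left out (adjusted p = 0.105). DKO replicate 1, which carried high hepatocyte transcripts (a 14-gene mean of 10.78, where other DKO arrays had 6.20 to 7.05 and Control arrays 6.26 to 7.02), had the lowest acinar mean and the lowest Tff2. Without it Tff2 was lower by -0.26 (adjusted p = 0.0676) and Muc6 by -0.40 (adjusted p = 0.0402). None of the 14 hepatocyte genes passed (0 at an unadjusted p of 0.05, median change 0.90), and the smallest p was that of albumin, Alb (1.33, adjusted p = 0.422). The part of acinar content in the Tff2 difference was not tested. Zg16, a lectin of zymogen granules that is also a goblet cell product, was set beside Tff2 after its values were seen: it stood at 12.84 ± 0.17 in DKO and 13.08 ± 0.03 in Control (SD, n = 5 each; adjusted p = 0.136).

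Muc1, the transmembrane mucin of apical epithelial membranes, was bright in all arrays and differed little. Its log2 levels were 11.91, 11.78, 11.96, 11.94 and 11.91 in DKO replicates 1 to 5, against 12.05, 11.93, 11.92, 11.97 and 11.79 in Control replicates 1 to 5. The groups overlapped, and the 95% interval of the log2 change ran from -0.16 to 0.10 (change -0.03, adjusted p = 0.817). Muc4, the large membrane mucin that binds the receptor ErbB2, measured 6.93 ± 0.18 in DKO and 7.05 ± 0.06 in Control (SD, n = 5 each). Its DKO arrays 1 and 5 were the lowest at 6.74 and 6.75, its DKO array 2 was the highest of all at 7.16, and the interval was -0.31 to 0.05 (change -0.13, adjusted p = 0.505).

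Neither gene of the surface-type pair passed. Muc5ac, the gel-forming mucin of the gastric surface, stood at 5.84, 5.78, 5.82, 5.62 and 5.57 in DKO replicates 1 to 5, against 5.64, 5.89, 5.92, 5.81 and 5.75 in Control replicates 1 to 5. All of these levels lay below the 6.12 mark of the olfactory receptor genes, and the interval of the log2 change was -0.24 to 0.09 (change -0.07, adjusted p = 0.669). Tff1, its trefoil partner, averaged 7.16 ± 0.20 in DKO and 7.28 ± 0.14 in Control (SD, n = 5 each), with an interval of -0.34 to 0.10 (adjusted p = 0.606). Tff3, the trefoil factor of intestinal goblet cells, averaged 7.30 ± 0.25 in DKO and 7.43 ± 0.12 in Control (SD, n = 5 each), with an interval of -0.38 to 0.11 (adjusted p = 0.598).

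Muc5ac, Tff1 and Tff3 had the same low arrays. Each had its 2 lowest levels in DKO replicates 4 and 5, with Tff1 at 7.04 and 6.89 and Tff3 at 7.02 and 7.09, and Control replicate 1 was the lowest Control array for all 3 genes. The lower quartile of all genes tested was low in the same arrays: it was 5.94 and 5.89 in DKO replicates 4 and 5, 6.04 to 6.10 in DKO replicates 1 to 3, 5.96 in Control replicate 1 and 6.03 to 6.09 in Control replicates 2 to 5. The part of this array-wide shift of dim genes in the levels of the 3 genes was not tested beyond quantile normalization again, after which their changes were -0.04, -0.12 and -0.15 for Muc5ac, Tff1 and Tff3 (adjusted p = 0.697, 0.555 and 0.526). Muc6, whose lowest array was also DKO replicate 5, was lower by -0.36 after the same step (adjusted p = 0.0230).

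**Figure D2:**
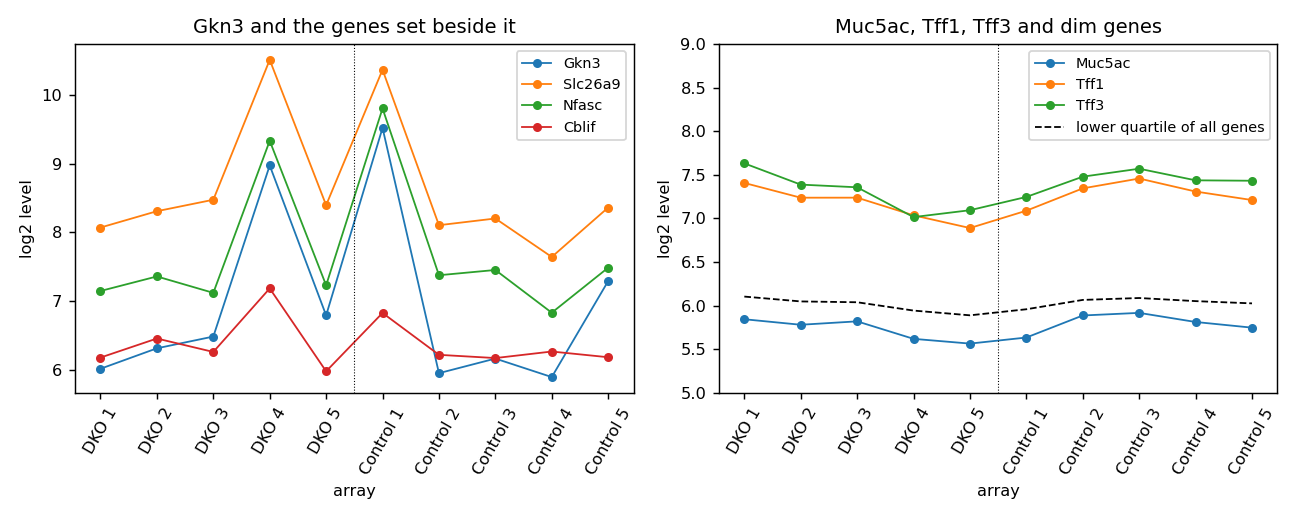
Log2 levels (y axis) over the 5 DKO and 5 Control arrays (x axis) for Gkn3 with Slc26a9, Nfasc and Cblif (left), and for Muc5ac, Tff1 and Tff3 with the lower quartile of all genes (dashed, right). Gkn3 peaks at 8.97 in DKO replicate 4 and 9.52 in Control replicate 1, and the lower quartile is lowest at 5.89 in DKO replicate 5.

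Agr2 and Gkn3 varied more within groups than between them. Agr2, a protein disulfide isomerase of the endoplasmic reticulum needed for mucin assembly, stood at 6.75, 8.89, 7.82, 7.73 and 9.19 in DKO replicates 1 to 5, against 8.78, 7.56, 8.26, 8.91 and 8.11 in Control replicates 1 to 5. DKO held both its lowest and its highest array, and DKO replicate 1, in which hepatocyte transcripts were high, was the lowest. Its SD within groups was 0.79, larger than that of 99.3% of genes. The interval of the change, -1.19 to 0.70, spans sizeable changes either way (change -0.24, adjusted p = 0.813).

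Gkn3, a gastrokine secreted by mucous neck cells of the mouse stomach, was high in 1 array of each group. It stood at 6.02, 6.31, 6.49, 8.97 and 6.79 in DKO replicates 1 to 5, against 9.52, 5.95, 6.17, 5.90 and 7.29 in Control replicates 1 to 5. DKO replicate 4 and Control replicate 1 were each over 2 log2 units above the next array of their group, and the within-group SD of 1.37 exceeded that of 99.8% of genes. The interval of the change was accordingly wide, -1.68 to 1.59 (change -0.05, adjusted p = 0.983). Genes with the profile most like it were sought after its values were seen. By the root mean square difference of centred log2 levels over the 10 arrays they were Slc26a9, an anion transporter of gastric epithelium (0.42), Nfasc, the adhesion protein neurofascin (0.42), and Tmc5, a transmembrane channel-like protein (0.58). Slc26a9 stood at 10.51 in DKO replicate 4 and 8.07 to 8.48 in the other DKO arrays, against 10.37 in Control replicate 1 and 7.64 to 8.36 in the other Control arrays. The gastric intrinsic factor gene Cblif, also singled out after its values were seen, was highest of its group in the same arrays, at 7.19 in DKO replicate 4 and 6.83 in Control replicate 1.

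The other genes of stomach glands were mixed in these arrays. Of 13 measured chief and parietal cell genes, Cblif and Kcnq1 were the 2 that were highest of their group in both of these arrays, and 4 (Atp4b, Vegfb, Lipf and Aqp4) were lowest of their group in both. The DKO means of these 4 ran from 4.18 (Lipf, a dim level) to 9.64 (Vegfb). The lower quartile of all genes was also low in these arrays, at 5.94 in DKO replicate 4 and 5.96 in Control replicate 1. The part of that shift in the levels of the 4 genes was not tested. The proton pump subunit gene Atp4a was 7.14 in DKO replicate 4, against 7.32 in Control replicate 1, and 7.13 to 7.24 in the other DKO arrays, against 7.15 to 7.35 in the other Control arrays.

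Dclk1, a microtubule-associated kinase that marks tuft cells, was the single gene of the 10 with a higher DKO mean. It stood at 7.80, 7.67, 7.92, 8.05 and 7.95 in DKO replicates 1 to 5, against 7.64, 7.66, 7.29, 7.22 and 7.69 in Control replicates 1 to 5. All 5 DKO arrays lay above the Control mean, but the lowest DKO array overlapped the highest Control array. The log2 change was 0.38 ± 0.11 (SE) with an interval of 0.14 to 0.62, and it did not pass over all genes (unadjusted p = 0.00531, adjusted p = 0.115; 0.0703 to 0.290 over the alternatives).

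**Figure D3:**
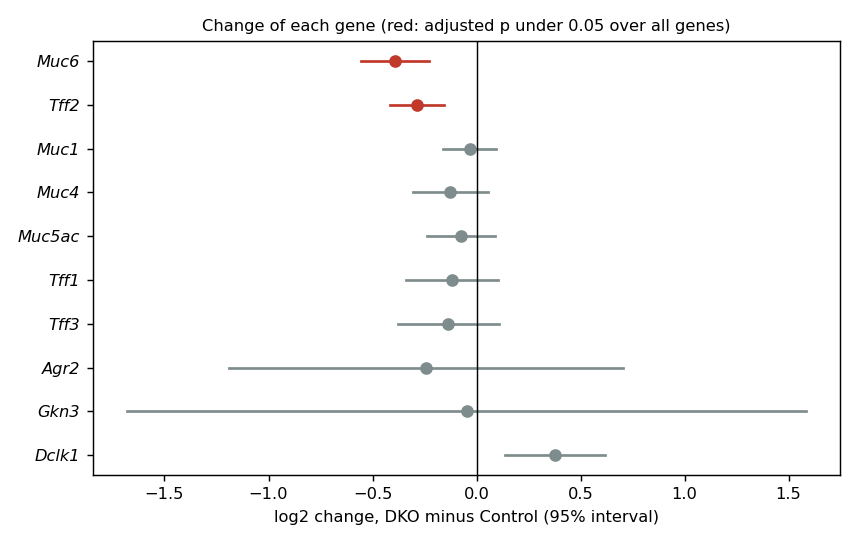
Log2 change, DKO minus Control (x axis), of each of the 10 genes (y axis), with its 95% interval from the limma fit, in red where the adjusted p over all genes was under 0.05. Muc6 (-0.39) and Tff2 (-0.29) are below 0, and the intervals of Agr2 and Gkn3 are by far the widest of the 10.

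Tuft cell genes other than Dclk1 gave no call either. Of 22 measured, none passed limma's test in either direction (4 at an unadjusted p of 0.05), and their median change was -0.05. The one with the smallest p was Kit, a receptor tyrosine kinase that is also found on mast cells (log2 change 0.41 ± 0.10 SE, adjusted p = 0.0615), and it passed in 3 of 23 alternatives, among them leaving out Control replicate 4 (adjusted p = 0.00451).

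Genes that act with mucus were also largely uncalled. None of 14 other mucin genes passed (1 at an unadjusted p of 0.05, median change -0.06), and the smallest p was that of Mcam, an adhesion molecule also counted as a mucin (0.27, adjusted p = 0.152). None of 27 enzymes of mucin O-glycans passed (4 at an unadjusted p of 0.05, median change 0.03). The nearest was B4galnt2, a glycosyltransferase of blood-group-like glycans, at 7.001 ± 0.19 in DKO and 6.45 ± 0.26 in Control (SD, n = 5 each; log2 change 0.55, adjusted p = 0.0502), and it passed in 7 of 22 alternatives. None of 18 goblet and mucous secretory cell genes passed (4 at an unadjusted p of 0.05, median change -0.08), with the smallest p for the angiogenin Ang4 (-0.20, adjusted p = 0.124).

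Of 12 gastric surface and pit cell genes 1 rose, Anxa10, an annexin of gastric epithelium. Anxa10 stood at 7.71, 7.48, 5.94, 6.02 and 6.87 in DKO replicates 1 to 5, against 5.18, 5.298, 5.63, 5.38 and 5.32 in Control replicates 1 to 5 (log2 change 1.44 ± 0.32 SE, adjusted p = 0.0424). Its groups did not overlap, its call depended on 8 of the 10 arrays, ending when any 1 of these was removed (adjusted p up to 0.105), and the median of the list was -0.03. The Anxa10 call also ended with a robust or an unmoderated variance, with the replicate block and with the Xist level as a covariate. All Control levels of Anxa10 and those in DKO replicates 3 and 4 lay below the 6.12 mark of the olfactory receptor genes. Cldn18, a claudin of gastric tight junctions named after its values were seen, was 8.82 ± 0.58 in DKO and 7.92 ± 0.62 in Control (SD, n = 5 each; adjusted p = 0.223). None of 13 chief and parietal cell genes passed (1 at an unadjusted p of 0.05, median -0.05), with the smallest p for the potassium channel Kcnq1 (-0.32, adjusted p = 0.262). None of 15 intestinal genes passed (0 at an unadjusted p of 0.05), with a median of -0.08 and the smallest p for the intestinal transcription factor Cdx2 (-0.11, adjusted p = 0.428).

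Among duct genes the calls were in the other direction from that of Muc6. Of 13 measured duct genes 4 rose and none fell, with a median change of 0.27: Krt7 (1.22 ± 0.14 SE, adjusted p = 0.00112) and Krt19 (0.41 ± 0.07 SE, adjusted p = 0.0155), keratins of ductal epithelia, the tight junction claudin Cldn4 (1.37 ± 0.17 SE, adjusted p = 0.00227) and the simple-epithelial keratin Krt8 (0.30 ± 0.06 SE, adjusted p = 0.0379). The Krt8 call ended when any 1 of 8 arrays was removed. The mean level of the 13 was 9.93 to 10.13 in DKO arrays and 9.67 to 9.89 in Control arrays. Among 16 genes of pyloric and acinar-to-ductal metaplasia 1 rose, the secreted chaperone Clu (0.69 ± 0.07 SE, adjusted p = 0.000878). In this list 8 had an unadjusted p under 0.05, and the median change was 0.19. These 8 were not all higher: Krt20 (-0.26) and Olfm4 (-0.34), named after their values were seen, were lower in DKO.

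**Figure D4:**
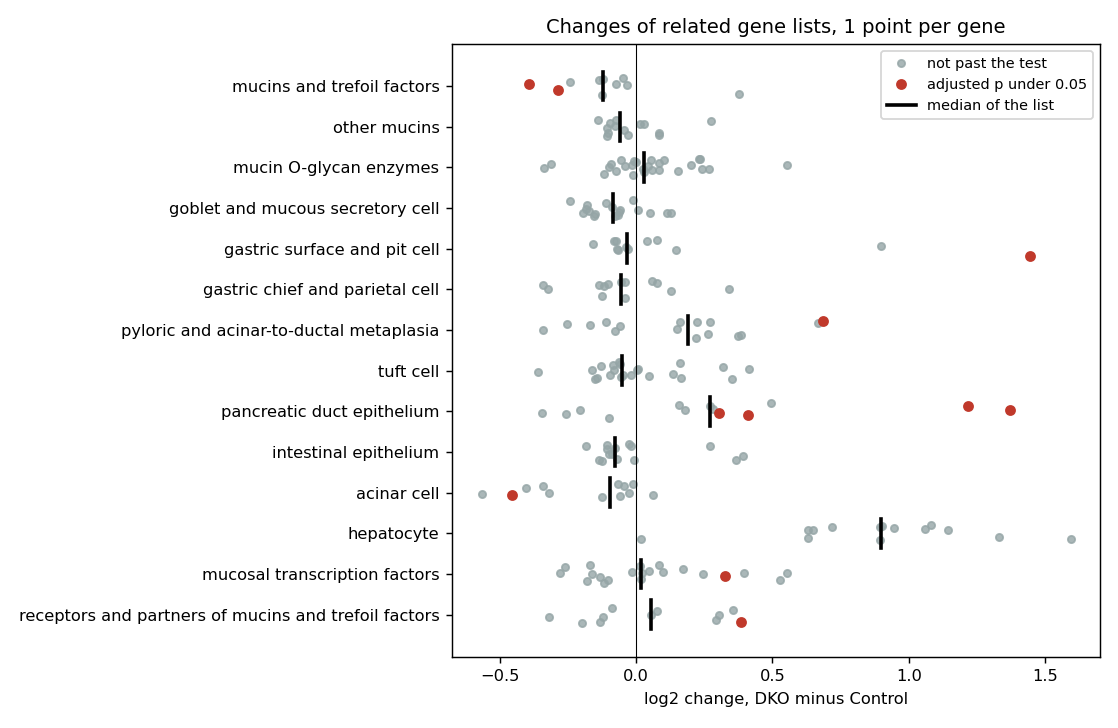
Log2 change, DKO minus Control (x axis), of every measured gene of 14 lists (y axis), 1 point per gene, red where the adjusted p over all genes was under 0.05, with a bar at each list's median. The mucins and trefoil factors have a median of -0.12 and 2 red points below 0, and the duct epithelium has 4 red points above 0.

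Among regulators and partners, Klf5, a zinc-finger factor of mucosal epithelium, rose by 0.33 ± 0.06 (SE, adjusted p = 0.0198) as 1 of 21 mucosal transcription factors, of which none fell (8 at an unadjusted p of 0.05, median change 0.02). Its call ended without Control replicate 2, DKO replicate 1 or DKO replicate 4 (highest adjusted p 0.0590) and with the block. Of 11 receptors and partners of mucins and trefoil factors 1 rose, the MUC4-binding receptor gene Erbb2 (0.38 ± 0.07 SE, adjusted p = 0.0204), and none fell (5 at an unadjusted p of 0.05, median change 0.05). Its call ended without Control replicate 2 or DKO replicate 1 (highest adjusted p 0.0589), with the block and with an unmoderated variance.

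At their loci, none of the 3 measured genes on either side of Muc6 or Tff2 passed. Tff3, Tff2 and Tff1 lie side by side on chromosome 17, and Tff2 alone of the 3 passed. Muc6, Muc2, Muc5ac and Muc5b lie in that order on chromosome 7, with changes of -0.39, -0.08, -0.07 and -0.10, and only Muc6 passed. Whether Muc6 changed more than its neighbours was not tested. Of 43 other measured genes within 3 places of any of the 10, 2 passed, both lower: Dpm3, a subunit of dolichol-phosphate mannose synthase near Muc1 (-0.25, adjusted p = 0.0405), and Tspan13, a tetraspanin beside Agr2 (-0.28, adjusted p = 0.0416). The Dpm3 call ended when any 1 of 9 arrays was removed, and the Tspan13 call when any 1 of 8 was.

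By the same measure of likeness, the genes closest to Tff2 over the 10 arrays were Copz2, a coatomer subunit (root mean square difference 0.05, log2 change -0.34), Atp13a2, a lysosomal transport ATPase (0.05, -0.29), and Sgsm3, a modulator of small G proteins (0.06, -0.31). All of these passed (adjusted p = 0.0178, 0.0147 and 0.0224), and their calls ended with the replicate block. The likeness was taken over the arrays of both groups, so it includes the difference between DKO and Control. A gene close to Tff2 or Muc6 therefore has a like log2 change by selection, and these p-values are no separate evidence. Those closest to Muc6 were the mitochondrial ribosomal protein gene Mrps16 (0.09, -0.30), the microRNA gene Mir26b (0.09, -0.29) and the synaptotagmin-related gene Syt16 (0.11, -0.25), none of which passed (adjusted p = 0.0598, 0.0573 and 0.0542).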

How the data were processed

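Pancreas RNA of 5 DKO and 5 Control samples was measured on Affymetrix Mouse Gene 1.0 ST arrays, 1 per sample. Per the submitters' processing notes, the arrays were processed with Affymetrix Expression Console, with version and settings not given in the sources used here. As deposited, the authors' table holds log2 levels of 35556 clusters (2.79 to 13.94), with array medians of 7.12 to 7.15, and were used as deposited, with no filter. Of these, 21789 clusters had 1 gene symbol in the platform annotation, and the brightest cluster over all 10 arrays stood for a gene, which left 19938 genes. Symbols were updated from a RefSeq table (GRCm38.p6).

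The comparison of DKO with Control used lmFit and eBayes (two-sided) of limma 3.58.1 under R 4.3.3, with Benjamini-Hochberg adjustment over all 19938 genes at 0.05. Adjusted p-values are from this fit, except where an alternative setting is named, and there they are from the fit of that setting. The main fit was also run on simulated data, with the outcome not given here. The number of arrays limits the precision (median SE 0.0754). The members and the 13 further lists were chosen with earlier results of these data known. Named were the members, up to 4 called genes of each list (or the 1 with the smallest p), called neighbours, and the 3 most similar genes of each called member. Others are marked in the text as named after their values were seen, as are Atp4a, Muc2, Muc5b, Atp4b, Vegfb, Lipf and Aqp4. The listed symbol Si was left out because it matched another gene.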

Additional observations from a re-analysis of the deposited data

Results flagged for a closer look

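Chance flags about 1 group in 20, and 22 groups of 5 arrays were looked at. Muc6 in DKO replicate 5 (5.87) lay far below the next DKO array (6.07), while the highest DKO array stood at 6.11. Gkn3 in DKO replicate 4 (8.97) lay far above the next DKO array (6.79), while the lowest stood at 6.02.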

How the results depend on the processing

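Of the 10 genes, 2 were called lower. That count was 1 after quantile normalization again and without the dimmest 50% of genes, where Muc6 is no longer tested, and 0 with an unmoderated variance, with the replicate block, at a threshold of 0.01 and without Control replicate 2 and DKO replicate 4 together, a setting chosen after seeing the data. Leaving out 1 array in turn gave 0 to 2, with 0 without Control replicate 5. No alternative called any of the 10 higher. Over all genes, the 414 higher calls became 271 with array medians subtracted, 264 with an unmoderated variance, 162 with the block, 154 at a threshold of 0.01 and 146 without the 2 arrays together, and ran from 232 to 372 on leaving out 1 array. The 73 lower calls became 125 after quantile normalization again, 34 with an unmoderated variance, 16 with the block, 46 with the Xist level as a covariate, 9 at a threshold of 0.01 and 5 without the 2 arrays together, and ran from 28 to 64 on leaving out 1 array. The cause of these moves was not tested beyond the fewer samples, degrees of freedom or calls that some settings allow by construction.

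The sign turned only in genes far from the threshold. With array weights the changes of Muc1 and Gkn3 were 0.0021 and 0.0010, and after quantile normalization again that of Stk4 was 0.011. Without Control replicate 2 and DKO replicate 4 together those of Slc26a9, Tmc5 and Cblif were -0.33, -0.18 and -0.14. On leaving out 1 array, the change ran from -0.52 to 0.087 for Agr2 (positive only without DKO replicate 1), from -0.56 to 0.59 for Gkn3, from -0.056 to 0.00074 for Stk4, from -0.22 to 0.67 for Slc26a9, from -0.58 to 0.35 for Nfasc, from -0.12 to 0.80 for Tmc5 and from -0.12 to 0.20 for Cblif. The cause was not tested. Of 624 counts of called genes in the other 13 lists under alternatives, 54 moved by over 1.5 times.

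The groups share replicate numbers, but deviations of same-numbered arrays correlated between -0.27 and 0.29, 3 of 5 pairs below 0. Of 10 arrays, 0 correlated best with their own number. The labels name no pairing beyond the number. These correlations cannot decide whether same-numbered samples share more, because other differences between arrays also enter them. With the replicate block, the calls of Muc6 (adjusted p = 0.0952) and Tff2 (adjusted p = 0.0831) ended at the same log2 changes.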
